A study of Arabidopsis thaliana with 27 samples.

Results

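A set of 40 of the 22746 Arabidopsis probe sets tested was at least 2-fold higher in both H2O2 lines than in wild type after 8 h at ambient CO2, and less than 2-fold apart between the lines. Members were chosen on group means of the log2 signal: cat2 minus WT at least 1, GO5 minus WT at least 1, and GO5 minus cat2 between -1 and 1, where 1 log2 unit is 2-fold. The limits were met by 49 probe sets, and 9 of these were left out by name (glycosyltransferases with UGT symbols, the small heat shock protein AT5G51440, AT3G55920, AT1G09500 and 262518_at). The annotation paired 12 members with a single gene, 1 with several genes and 27 with none, and these 28 are given by probe set ID.

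RNA came from whole rosettes of 3-week-old plants, 2 rosettes per sample, on 27 arrays in 9 groups of 3 biological replicates. The lines were cat2, the catalase-deficient insertion mutant cat2-2 with 10 to 15% of the wild-type catalase activity per the labels, GO5, which expresses glycolate oxidase in chloroplasts, and WT, Columbia-0 (Col-0). All grew in soil at 3000 ppm CO2 (16 h light of 75 µmol quanta per square metre and second, 8 h dark, 22 °C by day and 18 °C by night). Each line was harvested 8 h after a move to 380 ppm (ambient), after 8 h more at 3000 ppm (high CO2), and at 0 h, before any time at ambient CO2. Per line there is 1 mutant allele or transgenic line, and the labels used here do not name the promoter of the GO5 transgene.

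Photorespiration begins when Rubisco fixes oxygen in place of CO2, and high CO2 suppresses it. The glycolate it forms is oxidised in peroxisomes by glycolate oxidase, which releases H2O2, and catalase removes that H2O2. A plant short of catalase is therefore loaded with peroxisomal H2O2 once CO2 is lowered, while glycolate oxidase placed in chloroplasts forms H2O2 there. H2O2 is known to raise transcripts for detoxification (transferases, reductases, efflux carriers), for defence, and for cell wall enzymes such as class III peroxidases, which themselves use H2O2 in the wall.

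Array medians lay between 5.28 and 5.51 log2, and correlations between arrays of a group between 0.962 and 0.995, lowest in WT at ambient CO2. The leaf marker RCA (Rubisco activase) had group means of 12.7 to 13.4 log2 and the root marker EXPA7 of 2.49 to 2.82 log2. No catalase or glycolate oxidase gene on the lists looked up was found among the probe sets paired with a single gene. The GAPDH 3'/5' difference, a sign of RNA quality, was 1.6 ± 0.11 log2 in cat2, 1.49 ± 0.15 in GO5 and 2.12 ± 0.61 in WT at ambient CO2 (SD, n = 3 each), with WT replicate 2 at 2.82. The Actin 3'/5' difference did not set WT apart there, at 4.04 ± 0.42 in cat2, 4.19 ± 0.25 in GO5 and 4.0 ± 0.55 in WT (SD). Replicate 2 had Actin values of 4.52, 4.47 and 4.49 in this order. At 8 h high CO2 the Actin means were 3.95, 4.11 and 4.23 log2 in the same order. At 8 h high CO2 the GAPDH difference was 1.76 ± 0.09 log2 in cat2, 1.83 ± 0.07 in GO5 and 2.09 ± 0.31 in WT (SD, n = 3 each). Its part in the results was not tested beyond a fit with this measure as a covariate.

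At ambient CO2 the members were raised by a median of 1.27 log2 in cat2 (1.001 to 3.33) and 1.55 log2 in GO5 (1.01 to 3.78). GO5 was above cat2 for 25 members and below it for 15, with differences of -0.82 to 0.997 log2. At least 4-fold increases were reached by 5 members in cat2 and 10 in GO5. These values chose the members and carry no test. As a description, limma called 16 of the 40 higher in cat2 (adjusted p under 0.05, 0.514% of all probe sets called higher) and 30 of the 40 higher in GO5 (8.59% of all), and 0 of the 40 between GO5 and cat2 (8.2% of all), where the choice had set a limit. All cat2 arrays lay above all WT arrays for 27 members (3.11% of all probe sets), and all GO5 arrays above all WT arrays for 35 (10.3% of all). Both differences were taken against the same 3 WT arrays. In rosettes as a whole, more cells of a type and more RNA per cell cannot be told apart.

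**Figure D1:**
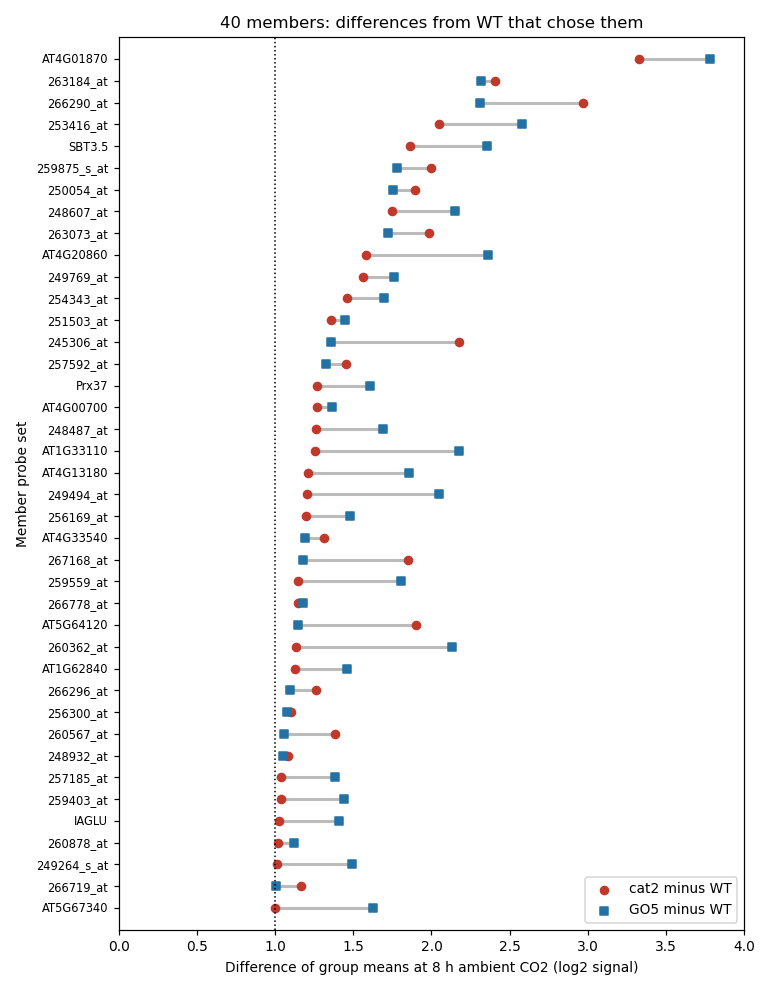
Differences of group means at 8 h ambient CO2 for the 40 members, in log2 signal on the x axis, with red circles for cat2 minus WT, blue squares for GO5 minus WT and the limit of 1 as a dotted line. AT4G01870 stands highest at 3.33 in cat2 and 3.78 in GO5, and AT5G67340 is closest to the limit, at 1.001 in cat2.

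Just inside the limit in cat2 lay AT5G67340 (1.001), 249264_s_at (1.012) and 260878_at (1.016 log2), and just outside it AT5G40450 and AT5G56350 (0.995 each) and 247351_at (0.993). For GO5 the nearest members were 266719_at (1.006), 248932_at (1.053) and 260567_at (1.055), with 260116_at (0.990), 250781_at (0.956) and AT4G15420 (0.949 log2) left out. In GO5 minus cat2, 260362_at (0.997), AT1G33110 (0.914) and 249494_at (0.847) were the highest kept, and 266292_at (1.027), 260602_at (1.047) and 264102_at (1.052 log2) the nearest beyond the limit. On the other side 245306_at (-0.818), AT5G64120 (-0.759) and 267168_at (-0.672 log2) were kept, and the nearest beyond was GSTU25 at -1.702.

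The member raised most was AT4G01870, which encodes a TolB-related protein. AT4G01870 had 10.61, 10.31 and 9.44 log2 in cat2 at ambient CO2, 9.94, 11.32 and 10.45 in GO5, and 7.26, 6.33 and 6.78 in WT. This is 10.0-fold in cat2 and 13.7-fold in GO5, and the lowest array of either line was above the highest WT array. At 8 h high CO2 it had 6.95, 8.37 and 6.25 log2 in cat2, 7.34, 7.42 and 8.25 in GO5, and 7.85, 7.09 and 5.72 in WT, so the lines overlapped there.

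The named members are given by what their genes are known to encode, and 27 members have no paired gene. SBT3.5, a subtilisin-like protease of the secreted type, had 7.47, 8.04 and 6.92 log2 in cat2 at ambient CO2, 7.34, 8.56 and 8.03 in GO5, and 5.87, 5.24 and 5.74 in WT. AT4G20860, a berberine bridge enzyme-like oxidase, had 7.27, 7.85 and 6.51 in cat2, 7.44, 8.23 and 8.29 in GO5, and 5.21, 4.94 and 6.74 in WT. For SBT3.5 neither line overlapped with WT, while for AT4G20860 cat2 overlapped with WT replicate 3.

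Class III peroxidases couple H2O2 to the oxidation of wall phenolics, and 2 of them were members. Prx37 had 6.60, 5.71 and 4.50 log2 in cat2 at ambient CO2, 5.34, 7.31 and 5.17 in GO5, and 5.34, 3.23 and 4.42 in WT. AT5G64120 (PRX71) had 9.05, 9.69 and 7.24 in cat2, 7.91, 8.02 and 7.77 in GO5, and 7.70, 5.35 and 7.22 in WT. Prx37 overlapped with WT in both lines, and AT5G64120 overlapped in cat2 only as far as these 9 arrays show.

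AT4G13180, a short-chain dehydrogenase/reductase, had 8.28, 8.36 and 7.32 log2 in cat2 at ambient CO2, 8.10, 9.15 and 8.65 in GO5, and 7.29, 6.46 and 6.57 in WT. AT1G33110, a MATE-type efflux carrier, had 6.94, 7.16 and 6.90 in cat2, 7.10, 8.19 and 8.45 in GO5, and 5.99, 4.72 and 6.51 in WT. Each array of the lines was above each WT array for both genes, but for AT4G13180 only just, at 7.32 in cat2 replicate 3 and 7.29 in WT replicate 1.

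IAGLU, which attaches glucose to the auxin indole-3-acetic acid, had 6.28, 6.42 and 6.77 log2 in cat2 at ambient CO2, 6.42, 7.12 and 7.09 in GO5, and 5.38, 5.41 and 5.61 in WT. AT4G33540, of the metallo-beta-lactamase family, had 9.86, 9.56 and 8.82 in cat2, 9.23, 9.88 and 8.75 in GO5, and 8.16, 8.11 and 8.03 in WT. Neither overlapped with WT, and the WT arrays of both lay close together. IAGLU belongs to the same enzyme class as the UGT genes left out by name.

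AT5G67340, a U-box protein of the ubiquitin ligase type, had 5.36, 6.02 and 4.24 log2 in cat2 at ambient CO2, 5.62, 5.89 and 6.0 in GO5, and 3.94, 4.14 and 4.53 in WT. AT4G00700, a protein with C2 domains, had 6.04, 6.45 and 4.30 in cat2, 5.58, 6.20 and 5.30 in GO5, and 4.93, 4.05 and 4.0 in WT. In both genes cat2 replicate 3 was within the WT range and GO5 was above it.

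The probe set 249264_s_at, paired with AT5G41750 and AT5G41740, which encode immune receptors of the TIR-NB-LRR class, had 5.99, 6.28 and 4.77 log2 in cat2 at ambient CO2, 5.93, 6.32 and 6.22 in GO5, and 4.43, 4.85 and 4.72 in WT. Its signal cannot be divided between the genes. AT1G62840 had 6.53, 7.21 and 5.25 in cat2, 6.33, 7.19 and 6.45 in GO5, and 5.04, 5.04 and 5.51 in WT. In both, cat2 replicate 3 again lay within the WT range.

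**Figure D2:**
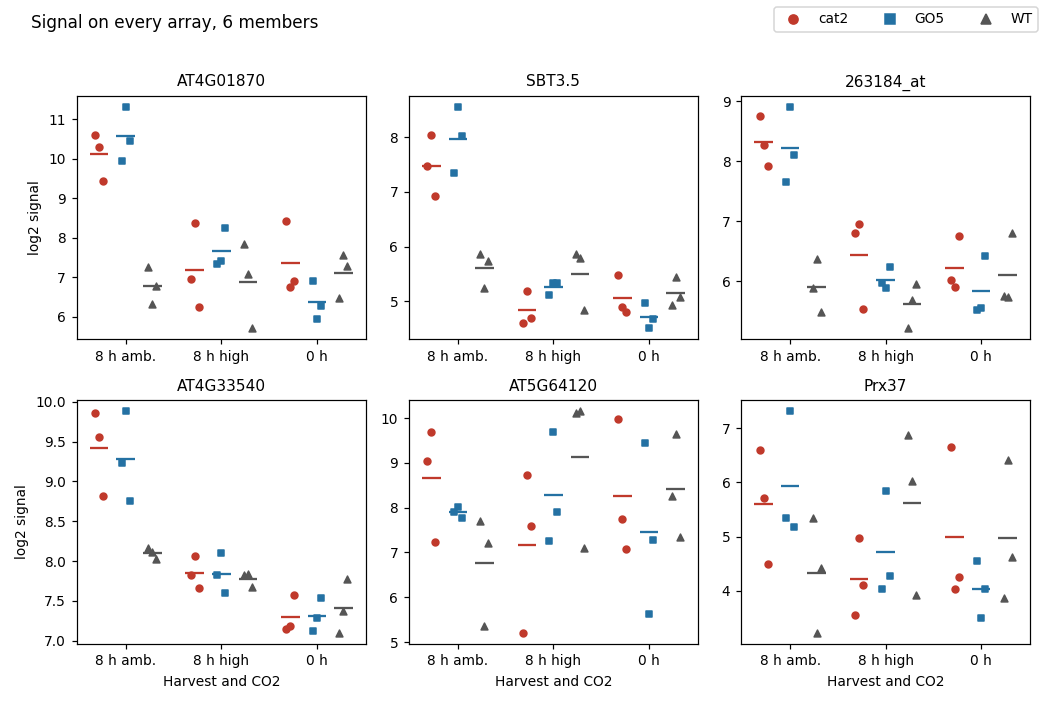
Log2 signal of 6 members on every array (points, 3 per group) with the group mean as a bar, for cat2 (red circles), GO5 (blue squares) and WT (grey triangles) at 8 h ambient, 8 h high CO2 and 0 h; each panel has its own y axis. In 4 panels (AT4G01870, SBT3.5, 263184_at and AT4G33540) the 6 ambient arrays of cat2 and GO5 stand above all other arrays, while AT5G64120 and Prx37 spread over more than 3 log2 units across the high CO2 and 0 h arrays.

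Of the 27 members with no paired gene, 3 had the largest values of the smaller of their differences in cat2 and GO5. Probe set 266290_at had 7.02, 7.18 and 6.62 log2 in cat2 at ambient CO2, 5.80, 7.04 and 6.02 in GO5, and 4.60, 3.72 and 3.59 in WT. Probe set 253416_at had 5.08, 5.49 and 4.13 in cat2, 4.96, 6.10 and 5.24 in GO5, and 3.04, 2.92 and 2.59 in WT. Its WT and high CO2 values, all at 3.26 or below, lie near the dim end of the arrays, where the 25th percentile of mean signal over all probe sets was 3.18. Probe set 263184_at had 8.76, 8.27 and 7.92 in cat2, 7.66, 8.91 and 8.11 in GO5, and 5.88, 6.37 and 5.48 in WT. All 3 were above WT without overlap, and the median difference over the 27 was 1.36 log2 in cat2 and 1.48 in GO5, against 1.27 and 1.62 over the 12 named ones.

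Whether the members already differed between the lines before CO2 was lowered was tested on the 18 arrays that the choice did not use. At high CO2 (0 h and 8 h averaged, 6 arrays per line) 0 of 40 members were called in cat2 minus WT by limma, where 0.0132% of all probe sets were. In GO5 minus WT 0 of 40 were called (0.00879% of all), and in GO5 minus cat2 0 of 40 (0.00879% of all). At an unadjusted p under 0.05 there were 3 members in cat2 minus WT (266290_at and 266778_at higher, AT4G00700 lower), 1 in GO5 minus WT (259403_at, lower) and 1 in GO5 minus cat2 (266778_at, lower). The member medians were -0.086, -0.115 and -0.011 log2 in these comparisons, against 0.016, 0.007 and -0.008 over all probe sets. At 8 h high CO2 alone limma also called no member, but more of them had an unadjusted p under 0.05 in cat2 minus WT. Lower in cat2 were AT5G67340 (-1.29), AT4G00700 (-1.53), 256300_at (-1.27), AT4G20860 (-1.49), 248932_at (-2.305), 256169_at (-2.02) and SBT3.5 (-0.67 log2). Higher in cat2 were 263184_at (0.82) and 266290_at (0.74 log2).

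A missed threshold does not show equal levels, so the intervals were read as well. In cat2 minus WT at high CO2 the 95% interval ended below 1 log2, the limit used at ambient CO2, for 36 of 40 members, and in GO5 minus WT for 39 of 40. It lay wholly between -1 and 1 log2 for 26 of 40 in cat2 and 29 of 40 in GO5, so for the others a difference of 2-fold, mostly towards lower levels in the lines, was within the interval. SBT3.5 differed by -0.378 log2 in cat2 (interval -0.835 to 0.078), AT4G13180 by 0.055 (-0.579 to 0.69) and AT4G33540 by -0.022 (-0.387 to 0.343). The widest intervals belonged to 248932_at (-3.03 to 0.101 in cat2) and AT5G64120 (-2.62 to 0.528), whose point values were lower in cat2 than in WT. Prx37, the other peroxidase, had an interval of -1.94 to 0.561 in cat2.

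**Figure D3:**
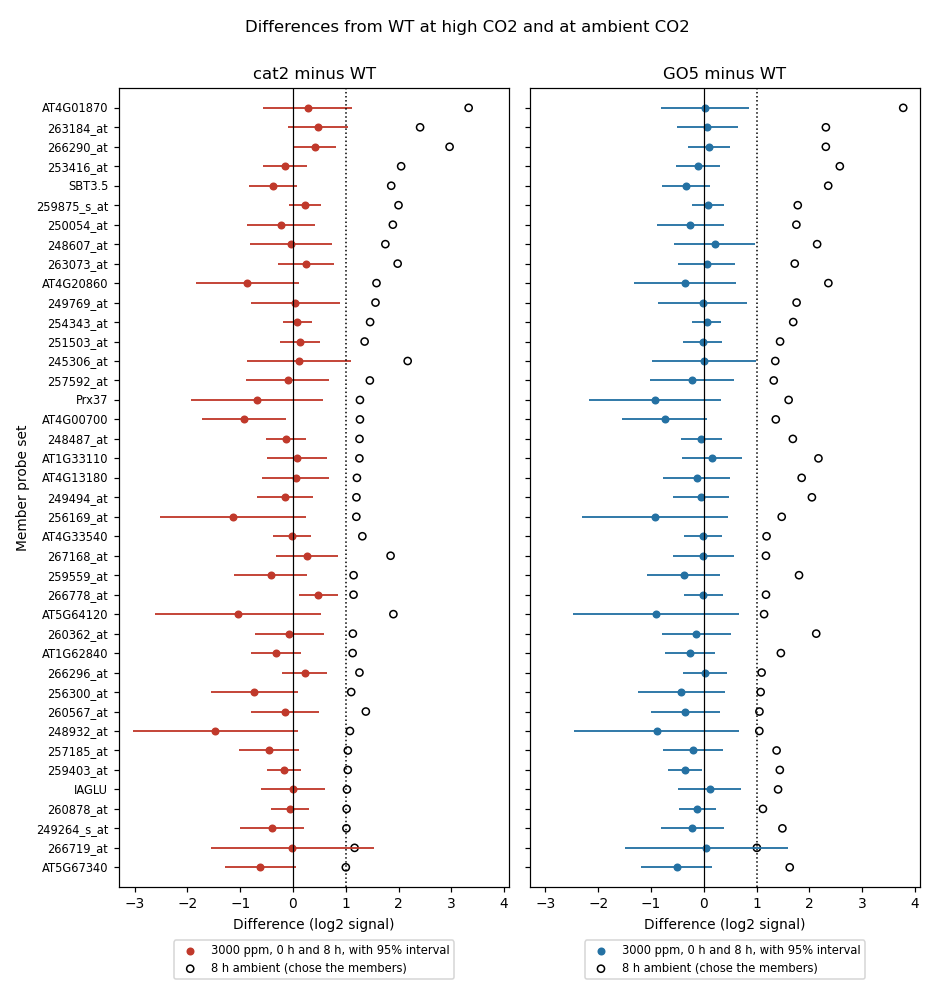
Differences from WT for the 40 members in log2 signal, left for cat2 and right for GO5, at 3000 ppm CO2 (filled points, 0 h and 8 h averaged, bars are 95% intervals) and at 8 h ambient CO2 (open circles). The filled points run from -1.47 to 0.48 in cat2 and from -0.929 to 0.209 in GO5, left of all open circles, which chose the members.

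The CO2 step within each line, 8 h ambient minus 8 h high CO2, shares the ambient arrays that chose the members and is therefore given as values. The members' median step was 1.69 log2 in cat2, 1.79 in GO5 and 0.05 in WT, against -0.05, -0.04 and 0.002 over all probe sets. A step of 1 log2 or more was seen for 36 of 40 members in cat2 (3.71% of all probe sets), 34 in GO5 (4.37% of all) and 2 in WT (1.82% of all), and a step of -1 log2 or less for 0 members in cat2 (1.36% of all) and 0 in GO5 (1.65% of all). Ambient arrays did not overlap with high CO2 arrays for 32 members in cat2 (10.4% of all), 32 in GO5 (14.2% of all) and 10 in WT (8.83% of all). In WT 22 members were above 0 and 18 below it, and 5 (1.23% of all probe sets) had a step of -1 log2 or less.

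Some members also responded to the step in WT. Probe set 267168_at had a step of 4.14 log2 in cat2, 3.84 in GO5 and 2.64 in WT, and 248607_at of 3.5, 3.37 and 1.62 in the same order of lines. At the other end, WT was lower at ambient than at high CO2 by 1 log2 or more for 5 members (1.23% of all), led by AT5G64120 (-2.36) and 256169_at (-1.75), and followed by 248932_at (-1.46), Prx37 (-1.28) and 256300_at (-1.23). For these 5 the step was 1.49, 1.47, 1.93, 1.39 and 1.15 in cat2 and -0.38, 0.28, -0.13, 1.22 and 0.39 in GO5. In GO5 the step was thus under 1 log2 for all of these except Prx37.

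**Figure D4:**
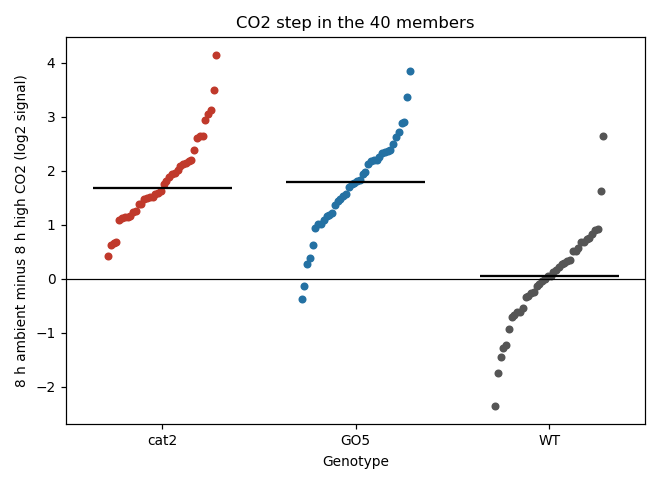
Difference between 8 h ambient and 8 h high CO2 in log2 signal for each of the 40 members, sorted within each line, with the median as a bar (1.69 in cat2, 1.79 in GO5, 0.05 in WT). The lowest member is at 0.43 in cat2, -0.38 in GO5 and -2.36 in WT.

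The ambient level, which chose the members, was above 0 h for 34 members in cat2, 35 in GO5 and 15 in WT, with medians of 1.46, 1.94 and -0.18 log2. It was higher by 1 log2 or more for 23 members in cat2 (5.27% of all), 28 in GO5 (7.01% of all) and 2 in WT (4.19% of all), and lower by as much for 2 in cat2 (3.81%), 2 in GO5 (4.34%) and 10 in WT (3.53%). All 6 ambient arrays of cat2 and GO5 lay above each of the other 21 arrays of the study for 14 members (0.277% of all probe sets). These were AT4G01870, SBT3.5, AT4G33540, 263184_at, 266290_at, 253416_at, 259875_s_at, 250054_at, 263073_at, 251503_at, 249494_at, 260362_at, 266296_at and 259403_at. For the other 26 members at least 1 other array reached the lowest of those 6.

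A different course was followed by members that fell during the day. The change over 8 h at constant high CO2 was tested with limma on arrays the choice did not use. In WT 9 of 40 members were called (13.4% of all probe sets), 8 lower (6.5% of all) and 1 higher (6.88%) at 8 h. In cat2 6 of 40 were called, all lower (12.5% of all, 5.92% lower and 6.62% higher), and in GO5 9 of 40 (13.9% of all), 7 lower (6.87% of all) and 2 higher (7% of all). Lower calls thus made up 15% of the members in cat2, 17.5% in GO5 and 20% in WT. A set of 6 members were lower in each of the 3 lines (15% of members, 3.99% of all probe sets).

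Probe set 266719_at changed most. At 8 h high CO2 it had 3.18, 2.86 and 5.18 log2 in cat2, 2.95, 2.41 and 5.57 in GO5, and 2.56, 3.14 and 5.34 in WT, against 0 h values of 9.49, 9.63 and 10.31 in cat2, 9.96, 9.91 and 10.19 in GO5, and 9.86, 9.63 and 10.19 in WT. The fall was -6.07 ± 1.05 in cat2, -6.37 ± 1.05 in GO5 and -6.21 ± 1.05 in WT (SE, limma adjusted p = 0.000331, 0.00017 and 0.000237). At ambient CO2 it had 3.94, 4.46 and 6.30 in cat2, 3.78, 3.18 and 7.26 in GO5, and 2.33, 2.78 and 6.08 in WT. Replicate 3 was above the other replicates in all 9 groups. Lines and WT overlapped at ambient CO2 through WT replicate 3 alone. Each array of the lines was above the WT array of the same number, on values that chose the member and with no pairing named by the labels.

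Of the named genes, the efflux carrier AT1G33110 changed by -2.08 ± 0.39 log2 in cat2, -2.08 ± 0.39 in GO5 and -2.146 ± 0.39 in WT (SE, n = 3 arrays per group, limma adjusted p = 0.000697, 0.000616 and 0.000485). With the GAPDH difference as a covariate the WT change was -1.36 (adjusted p = 0.0172). Its 8 h means were 7.0 at ambient and 5.49 at high CO2 in cat2, 7.91 and 5.58 in GO5, and 5.74 and 5.39 in WT, against 0 h means of 7.57, 7.67 and 7.54. IAGLU changed by -1.43 ± 0.41 in cat2, -1.57 ± 0.41 in GO5 and -1.85 ± 0.41 in WT (limma adjusted p = 0.0229, 0.011 and 0.0034), and its calls in cat2 and GO5 were lost when single arrays were left out. At ambient CO2 IAGLU stood at 6.49 in cat2 and 6.88 in GO5, between the 8 h high CO2 and the 0 h levels, and at 5.47 in WT, which is below both.

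Probe sets 248607_at, 249769_at and 245306_at completed the 6. Probe set 248607_at changed by -3.08 ± 0.52 in cat2, -2.51 ± 0.52 in GO5 and -2.90 ± 0.52 in WT, 249769_at by -3.44 ± 0.57, -3.59 ± 0.57 and -3.69 ± 0.57, and 245306_at by -2.42 ± 0.67, -2.53 ± 0.67 and -2.72 ± 0.67 (SE, limma adjusted p of 0.0184 or less in each). Ambient means of 248607_at were 10.14 in cat2, 10.54 in GO5 and 8.39 in WT, those of 249769_at 6.97, 7.17 and 5.41, and those of 245306_at 7.18, 6.36 and 5.00. In all 6 members the ambient mean of both lines was above their 8 h high CO2 mean and, except for 248607_at, 245306_at in cat2 and AT1G33110 in GO5, below their 0 h mean.

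**Figure D5:**
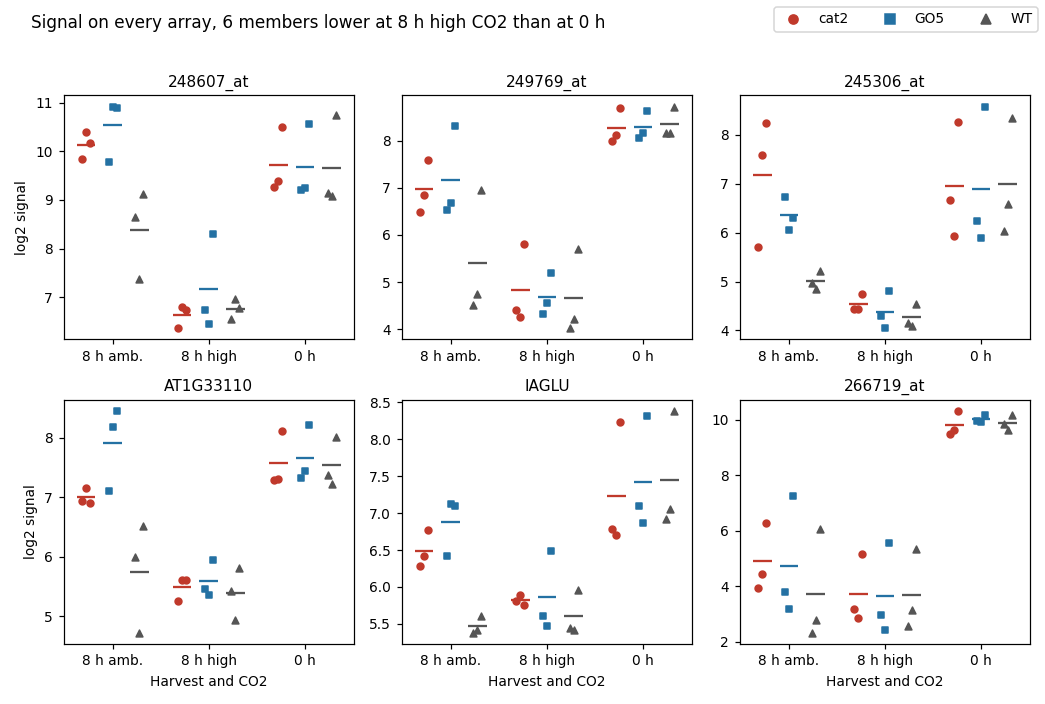
Log2 signal on every array for the 6 members that were lower at 8 h high CO2 than at 0 h in each line, with cat2 (red circles), GO5 (blue squares) and WT (grey triangles) and bars at the group means; each panel has its own y axis. The 0 h groups of the 3 lines lie together, and at 8 h ambient the means of cat2 and GO5 lie above that of WT, for IAGLU at 6.49 and 6.88 against 5.47.

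The other members called over the day were 254343_at (-0.76 ± 0.19 in WT), 251503_at (-1.07 ± 0.25 in GO5 and -0.81 ± 0.25 in WT), 249494_at (1.68 ± 0.36 in GO5 and 1.14 ± 0.36 in WT) and 248487_at (0.82 ± 0.26 in GO5). Day changes were also compared between lines, a test added after the values were seen. None of the 40 members, and none of all probe sets (0%), was called in cat2 minus WT, GO5 minus WT or GO5 minus cat2 by limma, with 1, 1 and 2 members at an unadjusted p under 0.05. A change called in a single line is not shown to differ from the other lines.

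Members varied among themselves in how tightly replicates agreed. A group SD over 1 log2 at 0 h or at 8 h high CO2 was found for 12 members, the largest for 248932_at (2.04) and AT5G64120 (1.92). AT5G64120 had 5.21, 8.72 and 7.58 log2 in cat2, 7.26, 9.68 and 7.90 in GO5, and 10.12, 10.15 and 7.09 in WT at 8 h high CO2. At 0 h it had 9.97, 7.75 and 7.07 in cat2, 9.44, 5.62 and 7.28 in GO5, and 8.25, 9.64 and 7.35 in WT. The same arrays were high for 256169_at, with r = 0.97 over the 18 arrays outside the choice, and 0.98 after removal of group means. Over all 780 pairs of members the median r on these arrays was 0.16 (-0.93 to 0.99). The arrays compared are the same for every pair of members, and each correlation is given as a description.

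The pairs most alike on those 18 arrays were 249769_at and 266719_at (r = 0.99), 245306_at and IAGLU (0.98), 256169_at and AT5G64120 (0.97) and 248607_at and AT1G33110 (0.97). The most opposed pair was 251503_at and 249494_at (-0.93). The 12 named genes lie on chromosomes 1 (3 genes), 4 (7 genes) and 5 (2 genes), and the closest, SBT3.5 and AT1G33110, are 19 protein-coding genes apart in the RefSeq order, so none are neighbours.

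Known stress and photorespiration genes were set beside the members from lists that hold none of the members with a paired gene. Only probe sets paired with a single gene were looked up, so the counts cover part of each list. Several listed genes had been left out of the members by name: AT5G51440, GSTU22, AT1G57630, AT1G19020, STZ, WRKY6, CML37 and CML38. Of these only AT5G51440 met the limits, at 3.87 log2 in cat2 and 4.69 in GO5. At high CO2 (0 h and 8 h averaged), limma called 0 of the 38 listed entries between lines in each comparison. At an unadjusted p under 0.05 there were 0 in cat2 minus WT, 4 in GO5 minus WT and 5 in GO5 minus cat2. These were all higher in GO5 (a gene on 2 lists counts on both). The average joins unlike times for AT2G04050, with 0 h means of 2.92 log2 in GO5, 2.9 in cat2 and 2.96 in WT. At 8 h high CO2 the means of AT2G04050 were 6.8, 2.92 and 2.86 log2 in the same order. Over all probe sets, limma called 0.514% higher in cat2 minus WT and 8.59% higher in GO5 minus WT at ambient CO2. Of 5 general oxidative stress hallmark genes, 4 were looked up. Among these, 0 were called in cat2 minus WT and 4 higher in GO5 minus WT at ambient CO2. Their medians were 0.92 and 2.74 log2 (members 1.27 and 1.55), with 1 higher in cat2 at an unadjusted p under 0.05. Of 6 mitochondrial retrograde targets looked up (9 on the list), 0 were called in cat2 and 6 were higher in GO5 (medians 0.59 and 3.57). In cat2, 3 of these targets were higher at an unadjusted p under 0.05 by limma, led by AT2G41730 at 1.83 log2. Of 7 heat shock genes looked up (21 on the list), 5 were higher in cat2 and 1, AT5G51440, in GO5 (medians 2.42 and -0.16). These ambient comparisons share the WT arrays that chose the members, so their calls are given as a description.

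Of 6 glutathione transferases looked up (26 on the list), 2 were called higher in cat2 and 1 in GO5 at ambient CO2. GSTU25 was at 5.02 in cat2 and 3.32 in GO5. Of 5 early stress genes looked up (17 on the list), 0 were called in cat2 and 3 higher in GO5. Among 5 photorespiration genes looked up (14 on the list), 0 were called in cat2 and 3 lower in GO5. The share of all probe sets called lower at ambient CO2 is not given here, so nothing is read from this count. Of 3 antioxidant genes looked up (18 on the list), 0 were called in cat2 and 1 higher in GO5, the glutathione reductase GR1 (0.71 in cat2 and 0.94 in GO5). GR1 also fell over the day at high CO2 in each line, with changes of -1.83 log2 in cat2, -2.10 in GO5 and -1.96 in WT, as the 6 members above did. APS3 of sulfate assimilation was called in neither line and BZIP60, a factor of the endoplasmic reticulum stress response, was higher in GO5 (1.31). Over the day at high CO2, 4 of the 6 mitochondrial targets were called higher in GO5 (7% of all probe sets) and 0 in cat2 (6.62%) or WT (6.88%). AT2G04050 led these (3.87 ± 0.58 log2 in GO5, SE, limma adjusted p = 5.9e-05). As given above, limma called no probe set for a day change that differed between lines. Of the 5 photorespiration genes, 2 were called lower over the day in cat2 (5.92% of all probe sets), 4 in GO5 (6.87%) and 4 in WT (6.5%). No probe set was paired with a single gene of the lists for salicylic acid defence and for jasmonate. Those genes could therefore not be looked up here, which does not show that the arrays lack them.

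Membership rested on few arrays for many probe sets. When each of the 9 ambient arrays was left out in turn, 13 of the 40 met the limits every time: AT4G01870, SBT3.5, AT4G13180, 263184_at, 253416_at, 259875_s_at, 250054_at, 248607_at, 263073_at, 249769_at, 254343_at, 251503_at and 248487_at. Without WT ambient replicate 2, the array with the high GAPDH difference, 28 of the 40 stayed, among 121 that met the limits. Without WT replicate 1 or 3, 33 and 39 stayed, among 74 and 113. Without cat2 replicate 1, 2 or 3, 29, 27 and 35 stayed, among 33, 30 and 117, and without GO5 replicate 1, 2 or 3, 33, 33 and 37 stayed, among 36, 41 and 45. AT5G64120, Prx37, IAGLU and AT1G33110 were among the 12 lost without WT replicate 2.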

How the data were processed

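The values are log2 signals as the authors deposited them, a value for each array and probe set. The submitters' processing notes name RMA, GCRMA, affy and R 2.15.0, and which of RMA and GCRMA made the values was not settled. Per the labels' protocols, total RNA was labelled for Affymetrix expression arrays.

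Groups came from the labels. Without its 64 control features the table holds 22746 probe sets. Of these, 13513 are paired with 1 gene, 503 with several and 8730 with none, and 13436 of the 13513 matched RefSeq (TAIR10.1). Limma 3.58.1 in R 4.3.3 fitted all 27 arrays with 1 mean per group (default empirical Bayes, two-sided). P-values were adjusted by Benjamini-Hochberg over all probe sets within each of 6 tested comparisons, and an adjusted p under 0.05 was a call. The number of arrays limits the precision. The fit was tested on simulated data. Replicate numbers paired cat2 with GO5 arrays within a time at high CO2, from the data and not the labels (correlations of deviations 0.6 to 0.778 at 0 h and 0.427 to 0.547 at 8 h). Among same-numbered arrays, pairing of cat2 and GO5 with WT was uneven and closest in replicate 3 (0.797 and 0.786 at 0 h, 0.427 and 0.439 at 8 h). At 0 h WT replicate 2 went with replicate 1 of the lines (0.747 in cat2 and 0.704 in GO5). WT replicate 1 went with their replicate 2 (0.502 and 0.547 at 0 h, 0.577 and 0.494 at 8 h high CO2). Same-numbered arrays of a line at different times correlated at -0.395 to 0.288. Single members could still share a high replicate 3 across groups, as given under Other observations. A block within each time, added after seeing the data, called 0 members in GO5 minus cat2, as without it. Named genes were the single-gene members, members called in a test (251503_at and 254343_at, beyond the rule's limit of 6, were added after their values were seen), and those nearest the limits; members with no paired gene are given by ID. Members and lists were chosen with earlier results of these data known. Promoter and protein sequences were not analysed here.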

Additional observations from a re-analysis of the deposited data

How the results depend on the processing

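The number of members was 40. It was 79 with group medians, 106 with a limit of 0.8 and 21 with a limit of 1.2 log2, 167 without WT ambient replicate 1 and cat2 ambient replicate 3 together, and 30 to 121 with each ambient array left out. Quantile normalization gave 39 and median centring 34, with 37 and 31 of the 40 kept. The 3 genotype comparisons at high CO2 gave 0 called members under every alternative run: both normalizations, trend and robust variances, the dimmest 40% of probe sets dropped (33 members left), only the arrays compared, each time point alone, each array left out, both arrays above left out, and a GAPDH covariate added after seeing the data.

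Day changes kept their counts within 1.5 times under the same alternatives, at 6 to 12 members in WT and GO5 and 4 to 7 in cat2, against 9, 9 and 6. Of 21 named day changes none reversed, and 14 passed whichever array was left out. With the GAPDH covariate 3 calls were lost (adjusted p = 0.0581 for 245306_at and 0.145 for 249494_at in WT, 0.099 for 248487_at in GO5), and the WT day change was called for 1793 of all probe sets, against 3042 without it. Changes of IAGLU, 245306_at, 248487_at and 249494_at were each lost without at least 1 array (IAGLU in cat2 without 0 h replicate 3 or any 8 h high CO2 replicate, and in GO5 without 0 h replicate 3 or 8 h high CO2 replicate 1 or 2), and the higher value of 249494_at in WT also after either normalization (adjusted p = 0.0519 and 0.0506). With replicate number as a block the high CO2 counts were 0, 0 and 0, and the day counts 11 in WT, 7 in cat2 and 9 in GO5. This block is a weak check against WT, since WT replicates 1 and 2 correlated with the lines across numbers at 0 h. Over all groups 22 of 45 same-numbered pairs from different groups had deviations correlated over 0.1 (median 0.099, against -0.064 in 90 other pairs), and 11 of 18 arrays correlated best with their own number. The dimmest members, with mean signals down to 2.87, give little room to see a decrease.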

Other observations

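The 6 members that fell over the day had their highest value in replicate 3 in 5 to 9 of the 9 groups, ambient ones included. For 249769_at and 266719_at this held in all 9 groups, for 245306_at and AT1G33110 in 8 and for IAGLU in 7. In 249769_at replicate 3 had 5.80 log2 in cat2, 5.19 in GO5 and 5.71 in WT at 8 h high CO2, where the other replicates lay between 4.03 and 4.55.

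The 9 probe sets that met the limits and were left out by name included the largest joint increases. Probe set 262518_at was higher by 5.34 log2 in cat2 and 5.53 in GO5, AT5G51440 by 3.87 and 4.69, AT3G55920 by 4.003 and 3.65, and 253268_s_at, paired with UGT73B2 and UGT73B3, by 2.88 and 3.23.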
